A study of Mus musculus with 12 samples.

Results

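The RNA of primary mouse aortic smooth muscle cells kept in calcification medium was compared with that of the same kind of cells in basal medium. The 9 cultures in calcification medium, out of 12 sequenced libraries in all, were chosen as the libraries whose labels name that medium. They form 3 groups of 3: calcification medium with the label LV-Klotho (a lentivirus for αKlotho), calcification medium with the label LV-Vector (an empty lentiviral vector), and calcification medium with no virus named. The remaining 3 libraries are controls in basal medium, DMEM with 10% serum. Calcification medium held 3.0 mM sodium phosphate and was applied for 7 days. All cells were wild type, came from C57BL/6J mice aged 5 to 6 weeks, grew out of aortic pieces freed of adventitia and endothelium, and were used between passages 5 and 8. The labels do not say whether the controls or the calcification cultures without a named virus received any lentivirus, nor whether replicates came from different mice or dishes. The p-values therefore describe the spread between these 12 libraries, which may be technical.

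High phosphate makes cultured smooth muscle cells deposit calcium phosphate mineral, and such cells are known to lose contractile proteins and to gain features of bone and cartilage cells. Hif1α, the oxygen-regulated subunit of the HIF transcription factor, is marked for degradation by prolyl hydroxylases while oxygen is present. When it is stable it switches on glycolysis, lactate export and blood vessel growth genes. The study asked how soluble αKlotho, an anti-ageing hormone of the kidney, acts on Hif1α and the chaperone Hsp90aa1 in calcifying cells.

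Libraries held between 16636138 and 20009600 fragments, recovered from the deposited FPKM (fragments per kilobase of gene, scaled to library depth). Control replicate 2 stood apart: it had 14969 genes above 0, against 17343 to 19361 in each of the other libraries, and 76 of the genes tested were at 0 in it, against 4 to 16 elsewhere. In every group replicate 1 lay highest and replicate 2 lowest on the second principal component, which held 25.9% of the variance. The LV-Vector libraries lay at -31.5 to -15.8 on the first component (33.0%) and the controls at 7.7 to 40.1. Kl, the gene for αKlotho, was at 0 in all libraries except LV-Klotho replicate 3, where it reached 0.00536 FPKM. At these depths 3 fragments of this gene correspond to 0.0193 FPKM or less, a floor that covers counting error only. The group is therefore named by its label, and a transgene that differs from the mouse sequence need not be counted here.

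Calcification medium was accompanied by higher and by lower levels of many genes. Of 10758 genes tested, 1725 (16.0%) differed from control at an adjusted p under 0.05 in limma, with 1017 (9.45%) higher and 708 (6.58%) lower. Of the 1725, 1722 had the same direction in each of the 3 calcification groups. The 3 group comparisons share the same control libraries, and 7282 of all genes tested (67.7%) agreed in direction, so this agreement is a filter and no further evidence. The exceptions were Idi1, Ier2 and Fcor. In 609 of the called genes (5.66% of those tested) the 9 calcification libraries and the 3 controls did not overlap, and 137 (1.27%) differed by more than 1 on the log2(FPKM + 1) scale, 88 (0.818%) higher and 49 (0.455%) lower. All fold changes below are on that scale, where low genes appear to change less than they do, and are given as calcification medium over control with a standard error. Counts of list members that rose or fell below stand against the 9.45% and 6.58% of all genes tested. With each library scaled to its upper quartile the split of called genes turned to 767 higher and 1002 lower, and the median fold change of all genes moved from 0.03 to -0.02. Without the replicate number as a block 471 genes (4.38%) were called, all of them among the 1725, and without control replicate 2 or 3 there were 456 and 424.

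**Figure D1:**
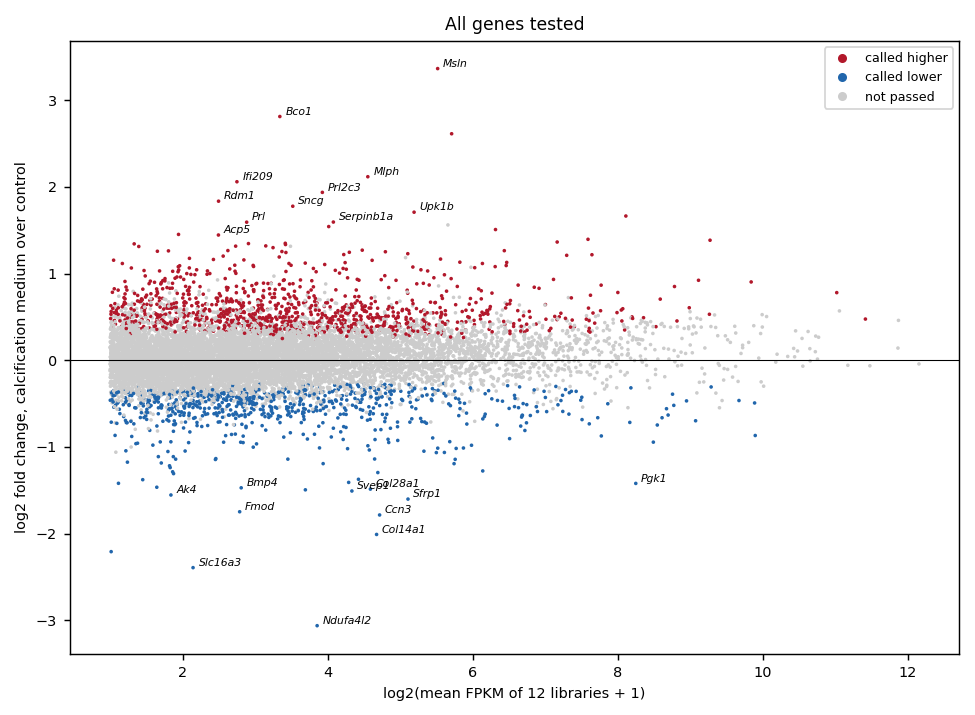
Log2 fold change of each gene tested, calcification medium (9 libraries) over control (3 libraries), against log2(mean FPKM + 1). Red points are the 1017 genes called higher and blue points the 708 called lower; the labelled genes are largest rises and falls without overlap, from Msln at 3.37 to Ndufa4l2 at -3.06.

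Genes switched on by HIF were lower in calcification medium. Among 27 tested hypoxia targets outside glycolysis, 18 fell, 2 rose (Pfkfb4 and Selenbp1) and 7 did not pass, and the list's median fold change was -0.55, against 0.03 for all genes tested. The median was -0.53 in calcification medium without a named virus, -0.63 with LV-Vector and -0.66 with LV-Klotho, each against the same controls. Within replicate numbers 1, 2 and 3 the list's median was -0.65, -0.40 and -0.59. Without the replicate block 12 members fell and 1 rose, and without control replicate 2 or 3, 14 and 12 fell; Selenbp1 and Pfkfb4 were both lost without control replicate 2.

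Ndufa4l2, at chr10:127350836-127353023 in the positions of the deposited table, encodes a mitochondrial protein that HIF induces and showed the largest fall. Its level was 1.92 to 9.56 FPKM (median 3.19) in calcification medium, against 68.1, 25.3 and 32.2 FPKM in control replicates 1, 2 and 3. Every calcification library lay under every control, and the fold change was -3.06 ± 0.21 (SE, adjusted p = 4.48e-05, n = 9 against 3, limma). Pdk1, the kinase that keeps pyruvate out of the citric acid cycle, stood at 0.519 to 1.38 FPKM (median 0.832) in calcification medium, against 5.26, 2.28 and 4.91 FPKM in control (-1.38 ± 0.13, adjusted p = 0.000192). Ak4, a mitochondrial adenylate kinase, stood at 0.667 to 2.97 FPKM (median 1.15), against 7.59, 3.2 and 7.51 FPKM (-1.56 ± 0.21, adjusted p = 0.00122). None of the 9 values of either gene reached the controls. Bnip3, which acts in the removal of mitochondria, stood at 24.4 to 50.4 FPKM (median 31.5), against 85, 52 and 82.9 FPKM, with no overlap (-1.07 ± 0.15). Vegfa, the growth factor for vessels and one of the genes of the study's question, stood at 3.36 to 7.73 FPKM (median 5.35), against 13.7, 9.21 and 12.2 FPKM (-0.97 ± 0.13, adjusted p = 0.00125), again without overlap. Its LV-Klotho libraries held the 3 lowest values, 4.7, 3.36 and 4.27 FPKM, and the F test among the calcification groups gave an unadjusted p = 0.0101 (adjusted p = 0.187). The members Pfkfb4 and Selenbp1, a phosphofructokinase-2 isoform and a methanethiol oxidase, went the other way, by 0.66 ± 0.16 and 0.65 ± 0.17. Adm, which encodes the vasodilator adrenomedullin, had -0.55 ± 0.17 and did not pass (adjusted p = 0.053).

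Glycolysis was lower at some of its steps. Of 18 tested genes of glycolysis and lactate export, 8 fell and none rose, with a median of -0.33, against 0.03 for all genes; without the block 5 fell, and without control replicate 3, 4 fell. Slc16a3 (chr11:120839306-120851694), the lactate exporter MCT4, stood at 0.43 to 2.52 FPKM (median 0.789) in calcification medium, against 15, 4.44 and 11.9 FPKM in control (-2.39 ± 0.19, adjusted p = 7.65e-05). The mean of the 3 controls was 9.77 times that of the 9 calcification libraries. Pgk1, the first enzyme of the pathway to yield ATP, stood at 157 to 266 FPKM (median 211), against 722, 389 and 622 FPKM (-1.42 ± 0.16, adjusted p = 0.000549). Pfkl, the liver form of phosphofructokinase, stood at 8.56 to 21 FPKM (median 11.7), against 45.1, 24.4 and 37.8 FPKM (-1.41 ± 0.17). In each of these genes the groups did not overlap and control replicate 2 was the lowest control. Ldha, which makes lactate, stood at 128 to 246 FPKM (median 186), against 375, 249 and 364 FPKM (-0.87 ± 0.16, adjusted p = 0.00717). The glucose transporter Slc2a1 fell by 0.62 ± 0.11 (adjusted p = 0.00619), with 16.7 to 27.1 FPKM (median 20.8) in calcification medium, against 38.7, 24.3 and 35 FPKM in control, and its groups overlapped. Eno1, Pgam1 and Pkm, enzymes of the later steps of the pathway, fell by 0.72, 0.50 and 0.47. The 10 members that did not pass included both hexokinases listed, Hk1 at -0.12 and Hk2 at -0.17, and Gapdh at 0.06 ± 0.66. Gapdh averaged only 3.03 FPKM in calcification medium and 3.48 FPKM in control (SD 4.55), against 451.9 and 620.4 FPKM for Pkm. Its value therefore does not show an unchanged level.

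Of 12 tested HIF subunits and oxygen sensors, 3 fell, 1 rose and 8 did not pass, with a median of -0.04. Among all genes 6.58% fell and 9.45% rose. Egln3 and Egln1, the prolyl hydroxylases that mark HIF subunits and are themselves HIF targets counted in the hypoxia list too, fell by 1.19 ± 0.18 and 0.78 ± 0.12. Egln1 stood at 19.6 to 29 FPKM (median 22.6) in calcification medium, against 42.6, 40.2 and 41.1 FPKM in control, and its groups did not overlap. Hif3a, whose splice forms include inhibitors of HIF, stood at 2.25 to 4.09 FPKM (median 3.15), against 0.88, 1.49 and 1.27 FPKM, the opposite direction (0.89 ± 0.15, adjusted p = 0.00378). Hif1a stood at 8.63 to 20.1 FPKM (median 12.9), against 21.2, 15.5 and 22.7 FPKM (-0.47 ± 0.09, adjusted p = 0.00752). Its groups overlapped, and the call was lost without the block (adjusted p = 0.129), without control replicate 2 (0.0533) or 3 (0.0698), and with the LV-Vector group out of the average (0.0631). The chaperones of the study's question did not pass: Hsp90aa1 had -0.12 ± 0.16 (adjusted p = 0.622) and Hsp90ab1 0.09 ± 0.10 (adjusted p = 0.543). Hsp90aa1 stood at 66.4 to 119.6 FPKM (median 89.9) in calcification medium, against 77.4, 131 and 98.9 FPKM in control.

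Stretches upstream of 5 of these genes are printed because HIF binds DNA at the core letters ACGTG or GCGTG; the core on either strand is in capitals. They come from the RefSeq promoter table of build GRCm38.p6 and run 5′ to 3′ along the gene, within the 250 bases before its outermost start. That build is not that of the positions given above, whose build the table does not state.
Pdk1, chr2:71873108-71873187, plus strand: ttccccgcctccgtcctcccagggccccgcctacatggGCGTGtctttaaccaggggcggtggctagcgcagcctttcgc
P4ha1, chr10:59323216-59323295, plus strand: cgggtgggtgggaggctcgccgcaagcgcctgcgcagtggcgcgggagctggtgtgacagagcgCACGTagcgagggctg
Ak4, chr4:101419209-101419288, plus strand: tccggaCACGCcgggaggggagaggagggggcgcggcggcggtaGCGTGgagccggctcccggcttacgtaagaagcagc
Slc16a3, chr11:120948987-120949066, plus strand: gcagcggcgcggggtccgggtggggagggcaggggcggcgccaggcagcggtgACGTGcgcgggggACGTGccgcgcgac
Pgk1, chrX:106186931-106187010, plus strand: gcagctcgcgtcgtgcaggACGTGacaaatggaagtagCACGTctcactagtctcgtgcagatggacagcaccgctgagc
The core was found in the 250-base window of 13 of the 15 called hypoxia genes with a RefSeq entry and of 7 of the 8 called glycolysis genes. It was also found in 5 of 5 hypoxia genes that did not pass, in 6 of 10 such glycolysis genes and in 58.8% of the windows of all 8086 tested genes with an entry, so these letters are common in windows of this length.

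**Figure D2:**
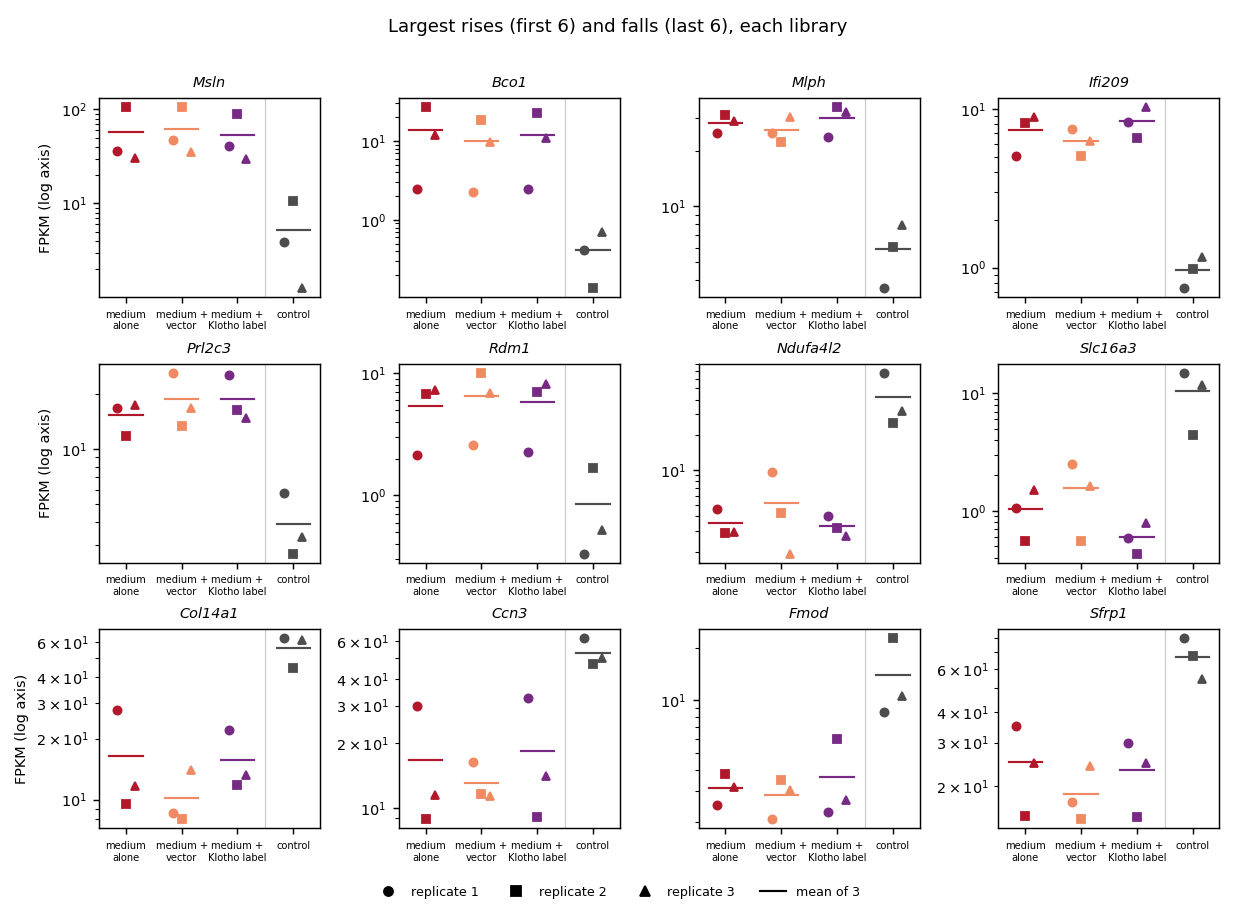
FPKM on a log axis in each of the 12 libraries for 6 of the genes with the largest rises (Msln to Rdm1) and the 6 with the largest falls (Ndufa4l2 to Sfrp1). Circles, squares and triangles are replicates 1, 2 and 3 and bars are group means. In each panel the 9 calcification libraries, left of the grey line, lie on the same side of the 3 controls. The genes were chosen for this separation.

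The largest rise was that of Msln (chr17:25967587-25973352), which encodes mesothelin, a surface protein of the mesothelium that lines body cavities. Its level was 36.4, 106 and 30.4 FPKM in calcification medium with no virus named, 47.5, 105 and 35.2 FPKM with LV-Vector and 41.3, 90.2 and 29.7 FPKM with LV-Klotho, against 3.87, 10.7 and 1.26 FPKM in control. The mean of the 9 was 11 times that of the controls (3.37 ± 0.14, adjusted p = 8.75e-07). Replicate 2 was highest in all 4 groups. Upk1b, a tetraspanin of the urothelial surface that mesothelial cells also make, stood at 26.2 to 71.6 FPKM (median 34.6) in calcification medium, against 7.41, 16.1 and 13.1 FPKM in control (1.71 ± 0.13, adjusted p = 6.55e-05). Both belong to a list of 12 mesothelial and epithelial markers, of which 11 are in the table and 4 were tested. The summed level of the list was 65.4 to 183.1 FPKM in calcification medium, against 17.2 to 35.8 FPKM in control. Of the other tested members Upk3b fell by 0.32 ± 0.09 (adjusted p = 0.0447) and Krt19 had 0.19 ± 0.17. The other 7 in the table were under the filter for low genes and were not tested. Krt7 stood at 0.443 to 1.59 FPKM in calcification medium, against 0.058 to 0.319 FPKM in control, Krt18 at 0 to 0.711 FPKM, against 0 to 0.243 FPKM, and Lrrn4 at 0.0135 to 0.411 FPKM, against 0 in all 3 controls. None of the 12 libraries had more than 0.149 FPKM of Wt1, Muc16, Cdh1 or Epcam. In bulk RNA more cells of a type and more RNA per cell cannot be told apart.

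Mlph, melanophilin, which ties Rab27a-bearing vesicles to myosin Va in pigment cells, stood at 22.3 to 34.4 FPKM (median 29) in calcification medium, against 3.62, 6.03 and 7.96 FPKM in control (2.12 ± 0.13, adjusted p = 4.12e-05). The 9 values lay far above the highest control, and the call held without the block (adjusted p = 0.000223). Myo5a, the myosin heavy chain of that complex, had -0.13 and did not pass. Bco1, which cleaves β-carotene to retinal, was at 2.28 to 27.1 FPKM (median 11) in calcification medium, against 0.414, 0.136 and 0.71 FPKM in control (2.81 ± 0.40). Its replicate 1 libraries, at 2.5, 2.28 and 2.43 FPKM, were the 3 lowest of the 9. Sncg, γ-synuclein, stood at 6.7 to 17.3 FPKM (median 13.6), against 3.84, 1.42 and 4.17 FPKM (1.78 ± 0.21). Serpinb1a, an inhibitor of neutrophil proteases, stood at 15 to 29.3 FPKM (median 17.2), against 6.68, 4.69 and 5.57 FPKM (1.59 ± 0.12), and Rdm1, a protein with a RAD52 motif, at 2.14 to 10.1 FPKM (median 6.91), against 0.334, 1.69 and 0.518 FPKM (1.84 ± 0.18). Acp5, the tartrate-resistant acid phosphatase known from osteoclasts, stood at 2.76 to 8.98 FPKM (median 5.37), against 2.16, 0.995 and 1.03 FPKM (1.44 ± 0.15). The rises named here were chosen among genes without overlap between calcification medium and control, so that separation is no further evidence.

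Prl2c3, a proliferin of the prolactin hormone family, stood at 11.8 to 26.2 FPKM (median 16.7) in calcification medium, against 5.72, 2.67 and 3.3 FPKM in control (1.94 ± 0.13, adjusted p = 4.12e-05). Prl2c2, another proliferin, differed between replicate numbers: its replicate 1 libraries held 107, 111 and 186 FPKM in calcification medium, against 24.1 in control, its replicate 2 libraries 36.9, 45.4 and 44.2, against 2.54, and its replicate 3 libraries 22, 10.1 and 22.8, against 4.06. The groups therefore overlapped, and the fold change of 2.61 ± 0.29 (adjusted p = 0.000456) was not called without the block (adjusted p = 0.083). Prl, prolactin itself, stood at 2.69 to 13.2 FPKM (median 7.62), against 1.08, 2.54 and 1.53 FPKM (1.59 ± 0.19), and was not called without the block either (adjusted p = 0.0594). The proliferins are near-identical copies, and how the authors' counting divided reads between them is not given.

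**Figure D3:**
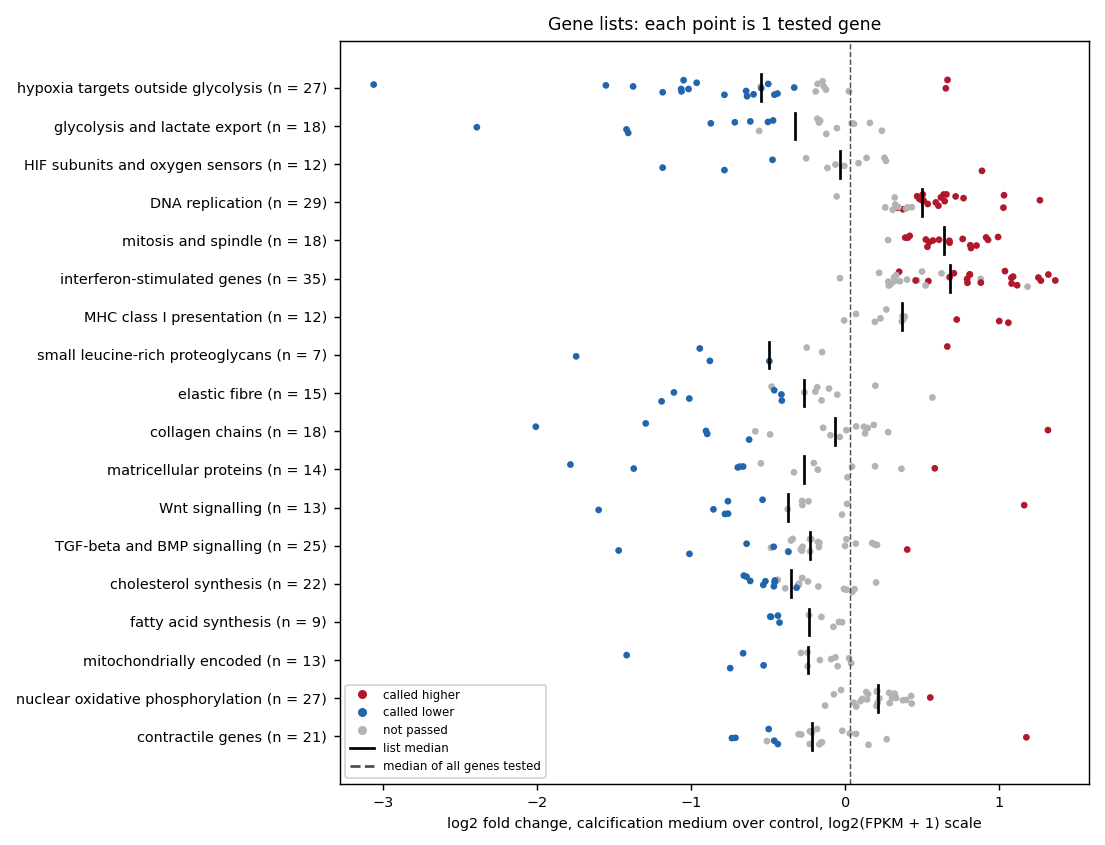
Log2 fold change of each tested member of 18 gene lists, calcification medium over control. Black bars are list medians, from -0.55 for hypoxia targets to 0.68 for interferon-stimulated genes, and the dashed line is the median of all genes tested, 0.03.

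Genes of DNA replication and mitosis rose. Of 29 tested replication genes, 20 rose and none fell, with a median of 0.50, and of 18 tested mitosis and spindle genes 17 rose and none fell, with a median of 0.64; 9.45% of all genes rose. Without the block 6 of each list rose, and without control replicate 2 or 3, 6 and 4 of the replication genes and 9 and 11 of the mitosis genes. In replication, Rrm2 (chr12:24758240-24764145), the regulated subunit of ribonucleotide reductase, which makes the building blocks of DNA, stood at 73.5 to 120.5 FPKM (median 104) in calcification medium, against 27.8, 51.4 and 47 FPKM in control (1.26 ± 0.10, adjusted p = 7.07e-05). Its partner Rrm1 stood at 21.2 to 26.1 FPKM (median 23.9), against 14.6, 13.9 and 15.6 FPKM (0.64 ± 0.07). The helicase subunit Mcm6 stood at 8.87 to 11.3 FPKM (median 9.53), against 5.31, 4.39 and 6.27 FPKM (0.77 ± 0.09). All 3 genes were without overlap, and so was Cdt1, which loads the helicase onto DNA, at 1.03 ± 0.14. E2f1, a transcription factor of these genes, had -0.06 and did not pass.

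Among mitosis genes, Ccnb1, cyclin B1, stood at 3.22 to 6.37 FPKM (median 4.71) in calcification medium, against 1.41, 1.52 and 2.83 FPKM in control (0.99 ± 0.11, adjusted p = 0.000456), without overlap. Cdk1, the kinase it activates, stood at 4.58 to 9.81 FPKM (median 7.82), against 3.9, 3.24 and 4.79 FPKM (0.81 ± 0.11), and Ube2c, which helps to destroy cyclins, at 5.7 to 15.3 FPKM (median 11.6), against 4.11, 5.17 and 6.25 FPKM (0.93 ± 0.13). In both, 1 calcification library, replicate 1 without a named virus, lay within the range of the controls. The proliferation marker Mki67 was the member that did not pass, at 0.28 ± 0.13 (adjusted p = 0.157). Of 10 tested CDK inhibitors and D cyclins 4 rose and 1 fell, against 9.45% and 6.58% of all genes; without the block 1 rise, that of Cdkn1c, was called, and without control replicate 2 or 3, 2 and 1 rises and no fall. Cdkn1c, the imprinted inhibitor p57, stood at 27.1 to 55.5 FPKM (median 34.6), against 12.2, 22.3 and 13.7 FPKM, without overlap (1.23 ± 0.08, adjusted p = 4.24e-05), while Cdkn1b, the inhibitor p27, fell by 0.56 ± 0.12. Ccnd1 and Ccnd3, D cyclins that start the cycle, rose by 0.72 ± 0.14 and 0.41 ± 0.12, and Cdkn2a, which encodes p16 and p19Arf, by 0.47 ± 0.14; Cdkn1a, the inhibitor p21, had -0.05 and did not pass.

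Late cell cycle genes often carry the letters TTTGAA near their start, the cell cycle homology region, and 3 such stretches are shown with it in capitals on either strand (RefSeq, GRCm38.p6).
Cdk1, chr10:69352913-69352992, minus strand: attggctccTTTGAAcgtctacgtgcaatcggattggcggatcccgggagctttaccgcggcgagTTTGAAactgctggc
Ube2c, chr2:164769849-164769928, plus strand: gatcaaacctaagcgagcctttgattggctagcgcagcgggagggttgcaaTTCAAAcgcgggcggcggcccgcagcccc
Cdc20, chr4:118437344-118437423, minus strand: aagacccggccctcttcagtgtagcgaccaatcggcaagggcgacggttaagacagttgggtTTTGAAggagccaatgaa
The letters were in the 250-base window of 5 of 13 called mitosis genes and 2 of 18 called replication genes with an entry, against 10.3% of all windows. An E2F site (TTTCCCGC, TTTCGCGC, TTTGCCGC or TTTGGCGC on either strand) was in 3 of 18 windows of called replication genes and in 3.48% of all.

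Interferon-stimulated genes rose when each library was set beside the control of its own replicate number, while levels overlapped between the groups. Of 35 tested, 19 rose and none fell, with a median of 0.68, and of 0.37, 0.83 and 0.58 in replicate numbers 1, 2 and 3; every member overlapped, and none was called without the block. Without control replicate 2, 2 were called, and without control replicate 3, 4. Irf7 (chr7:140842619-140846394), a transcription factor that amplifies the interferon response, held 34.2, 44.7 and 33.2 FPKM in the replicate 1 libraries in calcification medium, against 19.5 in control. Its replicate 2 libraries held 11.3, 9.97 and 7.25, against 2.54, and its replicate 3 libraries 27.5, 33.9 and 21.3, against 9.92 FPKM. Replicate 2 was lowest in all 4 groups (1.27 ± 0.13, adjusted p = 0.00029; 0.201 without the block). Oasl2, an antiviral protein like the oligoadenylate synthetases, held 5.72, 3.13 and 1.85 FPKM in replicate 2, against 0.145 in control (1.25 ± 0.25). Its adjusted p was 0.0101, and 0.0893 without control replicate 2. The synthetase Oas3 rose by 1.08 ± 0.17 and Ifi35, an interferon-induced protein, by 0.81 ± 0.16. Isg15, the ubiquitin-like modifier, had the list's highest fold change, 1.36 ± 0.34 (adjusted p = 0.0255), and Ifit1 did not pass at 1.18 ± 0.42 (adjusted p = 0.0747).

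Of the 7 tested Ifi200 genes, DNA sensors and relatives that interferon induces, 3 rose. Ifi209 stood apart from the rest in not overlapping, with 5.02 to 10.3 FPKM (median 7.42) in calcification medium, against 0.742, 0.976 and 1.17 FPKM in control (2.06 ± 0.15, adjusted p = 6.55e-05), and it was called without the block (adjusted p = 0.000193). Ifi205 and Ifi204 rose by 1.09 ± 0.15 and 0.49 ± 0.11 and overlapped. These genes are close copies of each other, so reads may be divided between them. Of 12 tested genes of MHC class I presentation, 3 rose with the block, against 9.45% of all genes, and 0 without it. The 3 were the immunoproteasome subunits Psmb8 (1.00 ± 0.10) and Psmb10 (1.06 ± 0.16) and the peptide transporter Tap1 (0.72 ± 0.13). The class I chain H2-K1 had 0.39 and B2m 0.07, and neither passed. Macrophage markers were summed over 15 listed genes at 30.6 to 133.2 FPKM in calcification medium, against 27.1 to 159.5 FPKM in control. The sum was highest in replicate 1 of every group, at 100.3, 133.2 and 98.24 FPKM in calcification medium, against 159.5 FPKM in control. Replicate 2 held 33.44, 57.85 and 39.72 FPKM, against 32.15, and replicate 3 held 30.58, 34.12 and 34.16 FPKM, against 27.12. Of 8 tested, 1, Csf1r, rose (0.56 ± 0.12). Whether these cells bear on the interferon genes was not tested.

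Interferon-activated factors read the letters GAAA, then any 2 bases, then GAAA, shown in capitals on either strand in 3 stretches (RefSeq, GRCm38.p6; in Oas1a 2 matches overlap).
Oas3, chr5:120777690-120777769, minus strand: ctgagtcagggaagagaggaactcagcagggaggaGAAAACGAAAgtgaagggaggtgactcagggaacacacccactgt
Oas1a, chr5:120907526-120907605, minus strand: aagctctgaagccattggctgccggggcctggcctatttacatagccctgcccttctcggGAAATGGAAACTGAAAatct
Gbp2, chr3:142620569-142620648, plus strand: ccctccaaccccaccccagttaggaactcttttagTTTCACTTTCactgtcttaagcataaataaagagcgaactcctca
They were in the window of 9 of 15 called interferon-stimulated genes with an entry, 3 of 11 that did not pass, 0 of 3 called MHC class I genes, and 2.58% of all windows.

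**Figure D4:**
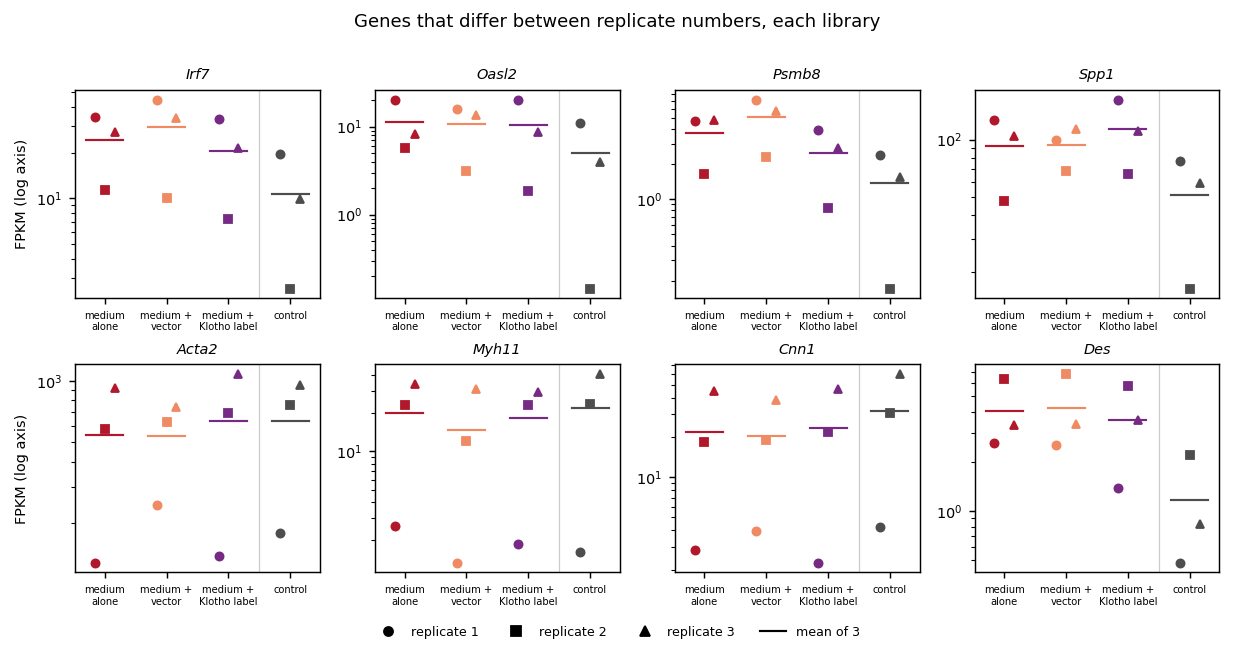
FPKM on a log axis in each library for 8 genes whose level differs between replicate numbers. Replicate 2 (squares) is lowest in each group for Irf7, Oasl2, Psmb8 and Spp1, and replicate 1 (circles) for Acta2, Myh11, Cnn1 and Des; within a number the calcification libraries of Irf7 lie above the control, while those of Acta2 lie on both sides of it in replicates 1 and 3 and below it in replicate 2.

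Of 17 inflammatory genes tested 4 rose and 2 fell, against 9.45% and 6.58% of all genes. None of the 6 was called without the block; without control replicate 2 or 3, 1 and 0 of the rises and both falls were called. Cxcl12, a chemokine that holds stem cells and leukocytes, fell by 1.01 ± 0.14 and Ptgs2, the inducible cyclooxygenase, by 0.91 ± 0.12. The chemokines Cxcl5 and Ccl5 rose by 0.77 ± 0.14 and 1.03 ± 0.20, and Tnfaip3 and Relb of the NF-κB pathway by 0.66 ± 0.20 and 0.83 ± 0.21. Ccl2 had 1.56 ± 0.51 and did not pass (adjusted p = 0.0614), with 46.2, 83.5 and 65.8 FPKM without a named virus, 51.6, 91.6 and 89.5 with LV-Vector and 51.4, 6.03 and 50.7 with LV-Klotho, against 25.5, 5.88 and 26.9 FPKM in control. In LV-Klotho replicate 2 it was at the level of control replicate 2. Among the complement genes, C2 rose (0.60 ± 0.16) and C3 had -0.54 ± 0.24 and did not pass.

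Matrix genes fell in several families. Col14a1 (chr15:55171146-55384199), a collagen on the surface of collagen fibrils, stood at 7.99 to 27.8 FPKM (median 11.8) in calcification medium, against 62.4, 44.7 and 61 FPKM in control (-2.01 ± 0.22, adjusted p = 0.000455). Of 18 collagen chains tested, 5 fell and 1 rose, with a median of -0.07, against 0.03 for all genes, and 3 fell without the block and without control replicate 2 or 3. Col8a1, a short-chain collagen of injured vessels, and Col5a2, which limits fibril width, fell by 1.30 ± 0.19 and 0.90 ± 0.16, and Col12a1 and Col11a1 by 0.90 and 0.62. Col6a3 went the other way, with 3.87 to 12.2 FPKM (median 6) in calcification medium, against 1.69, 1.88 and 2.45 FPKM in control (1.32 ± 0.23). The main fibril chains Col1a1, Col1a2 and Col3a1 had -0.10, -0.14 and -0.49 and did not pass. Col28a1, a collagen chain outside that list, fell by 1.49 ± 0.12, with 10.4 to 27.8 FPKM (median 13.9), against 50.4, 37 and 46.3 FPKM.

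Of 24 tested enzymes and chaperones that modify, fold or crosslink collagen 4 (16.7%) fell and 3 (12.5%) rose, against 6.58% and 9.45% of all genes. Those that fell included the HIF targets P4ha1, which hydroxylates proline, and Plod2, which hydroxylates lysine. P4ha1 stood at 35.5 to 49.4 FPKM (median 40.8), against 87.6, 80.3 and 93 FPKM (-1.02 ± 0.10, adjusted p = 0.00024). Plod2 stood at 16 to 47.2 FPKM (median 29.8), against 51.9, 71 and 67.5 FPKM (-1.05 ± 0.10). The crosslinking oxidases Lox and Loxl4 fell by 0.87 ± 0.13 and 0.42 ± 0.12, while Loxl3, Pcolce and Fkbp10 rose by 0.34, 0.34 and 0.33, calls that upper-quartile scaling removed. Without the block, or without control replicate 2 or 3, 3 of the falls and none of the rises were called.

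Elastic fibre genes had 6 falls and no rise among 15 tested, with a median of -0.27, and 2 falls without the block or without control replicate 2. Fbln5, which organises elastin, stood at 29 to 62 FPKM (median 45.7) in calcification medium, against 71.3, 118 and 89.9 FPKM in control (-1.01 ± 0.10, adjusted p = 0.00025). Ltbp2, a fibrillin-binding protein, stood at 5.87 to 16.4 FPKM (median 10.4), against 24.1, 26.9 and 24.3 FPKM (-1.19 ± 0.16), and both genes were without overlap. Eln, elastin, stood at 0.714 to 3.117 FPKM (median 1.57), against 1.36, 8.07 and 7.17 FPKM, with control replicate 1 within the range of calcification medium (-1.11 ± 0.22, adjusted p = 0.00974). Among 7 small leucine-rich proteoglycans, which coat collagen, 4 fell and 1 rose. Fmod, fibromodulin, stood at 2.07 to 5.97 FPKM (median 3.05), against 8.54, 22.7 and 10.5 FPKM (-1.75 ± 0.15, adjusted p = 0.000113), and Prelp at 247 to 342 FPKM (median 287), against 460.4, 667 and 565 FPKM (-0.95 ± 0.13). Podn and Bgn fell by 0.88 ± 0.18 and 0.49 ± 0.14, and Aspn, asporin, rose by 0.66 ± 0.16; without control replicate 2 or 3, 2 and 3 of the falls were called and the rise was not. Dcn, decorin, had -0.25 and did not pass. It stood at 51.9, 27.5 and 58.8 FPKM in replicate 1 in calcification medium, against 49.2 in control, at 3.95, 4.53 and 5 in replicate 2, against 4.31, and at 10.9, 10.2 and 9.97 in replicate 3, against 16.6. All 3 calcification libraries lay under the control in replicate 3, and on both sides of it in replicates 1 and 2.

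Of 14 matricellular proteins, which signal from the matrix, 5 fell and 1 (Tnxb) rose, against 6.58% and 9.45% of all genes. Without the block 2 falls, Ccn3 and Tnc, and no rise were called, and without control replicate 2 or 3, 4 and 3 falls. Ccn3, a regulator of growth and mineralization, stood at 8.84 to 32.4 FPKM (median 11.7) in calcification medium, against 61.8, 46.9 and 49.98 FPKM in control (-1.79 ± 0.20, adjusted p = 0.000485). Tnc, tenascin-C of injured vessels, stood at 8.94 to 24.8 FPKM (median 13.6), against 37.7, 31.2 and 46 FPKM (-1.37 ± 0.16). Neither gene overlapped. Ccn1, Ccn2 and Thbs1, known targets of YAP and TGF-β signalling, fell by 0.66, 0.70 and 0.69. Other genes of the YAP and TEAD list, Ankrd1, Amotl2, Ajuba and Axl, had -0.08, -0.15, -0.17 and 0.02 and did not pass. Svep1, a large adhesion protein of vessel walls, fell by 1.51 ± 0.23, at 7.12 to 21.8 FPKM (median 11.5), against 37.7, 39.5 and 34.6 FPKM. Of 13 proteases and TIMPs, Mmp23 rose (0.74 ± 0.10) and Adamts5 fell (-0.61 ± 0.16), neither of them called without the block.

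Signalling genes of the Wnt pathway fell, 6 of 13 tested, with 1 rise and a median of -0.37. Sfrp1 (chr8:23901518-23939648), a secreted antagonist of Wnt ligands, stood at 14.6 to 35 FPKM (median 24) in calcification medium, against 79.96, 67.7 and 54.4 FPKM in control (-1.60 ± 0.18, adjusted p = 0.000549), without overlap. The Wnt receptors Fzd8, Fzd4, Fzd7 and Fzd5 fell by 0.78, 0.76, 0.76 and 0.54, and the intracellular inhibitor Nkd2 by 0.86 ± 0.10. Apcdd1, a membrane inhibitor of Wnt and BMP signals, was the rise, at 3.23 to 6.92 FPKM (median 4.85), against 1.52, 2.24 and 1.51 FPKM (1.16 ± 0.11, adjusted p = 0.00023). Antagonists thus stand on both sides, and 3 of the falls were called without the block, 2 without control replicate 2.

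Among 25 tested genes of TGF-β and BMP signalling 5 fell and 1 rose, against 6.58% and 9.45% of all genes, with a median of -0.23. Of these lists' genes 2 fell without the block and without control replicate 2 or 3. Bmp4, a bone morphogenetic protein, stood at 1.48 to 4.92 FPKM (median 4.08) in calcification medium, against 5.43, 21 and 12.8 FPKM in control (-1.47 ± 0.18, adjusted p = 0.000758). Its highest calcification library and its lowest control, replicate 1, were close, and the groups did not overlap. Smad7, the feedback inhibitor of TGF-β, fell by 1.01 ± 0.13, and the BMP receptor Bmpr2 and Inhba by 0.64 and 0.37. Tgfb1, the ligand, rose by 0.40 ± 0.11. The targets Id1, Id2 and Id3 had -0.28, 0.19 and -0.29 and did not pass. In the FGF and ERK list 3 of 16 rose, the phosphatase Dusp4 (0.81 ± 0.12), the AP-1 factor Fosl1 (1.00 ± 0.23) and the receptor Fgfr1 (0.35 ± 0.11). In the IGF list Igfbp6 rose (0.85 ± 0.15) and the receptor Igf1r fell (-0.68 ± 0.14), 2 of 8. Pdgfd and the receptor Pdgfra fell (-0.75 ± 0.10 and -0.72 ± 0.21), 2 of 5. Of 11 genes of the YAP and TEAD list, Tead2 rose (0.80 ± 0.13) while Tead1 and Wwtr1, the coactivator TAZ, fell (-0.78 ± 0.18 and -0.44 ± 0.11). Among 5 Notch genes the ligand Jag1 fell (-0.62 ± 0.15). Of the calls in these 5 lists, those of Dusp4, Fosl1, Igf1r and Tead2 were also made without the block.

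The contractile genes Acta2, Myh11 and Cnn1 were lowest in replicate 1 of every group, in either medium. Acta2, smooth muscle actin, stood at 128, 245 and 138 FPKM in replicate 1 in calcification medium, against 178 in control, at 580.1, 625 and 696 in replicate 2, against 763, and at 923, 744 and 1081 in replicate 3, against 952. All 3 calcification libraries lay under the control in replicate 2, and on both sides of it in replicates 1 and 3. It did not pass (-0.16 ± 0.18, adjusted p = 0.558), nor did the smooth muscle myosin Myh11 (-0.18 ± 0.14, adjusted p = 0.387). Of 21 contractile genes tested, 5 fell and 1 rose, with a median of -0.22, and none was called without the block. Those that fell were Cald1 (-0.74 ± 0.12), which restrains actomyosin, the adhesion linkers Vcl (-0.71 ± 0.16) and Actn1 (-0.46 ± 0.10), and the actin-binding Cnn1 (-0.50 ± 0.13) and Tagln (-0.44 ± 0.13). Without control replicate 2 or 3, Cald1 was the remaining fall (adjusted p = 0.0439 and 0.0458). Cnn1 stood at 2.82, 3.95 and 2.26 FPKM in replicate 1, against 4.23, at 18.5, 19.2 and 22.1 in replicate 2, against 30.8, and at 44.7, 38.4 and 46 in replicate 3, against 60.3. Des, desmin of the intermediate filaments, was the rise, with 2.58, 6.35 and 3.33 FPKM without a named virus, 2.53, 6.83 and 3.4 with LV-Vector and 1.38, 5.74 and 3.58 with LV-Klotho, against 0.483, 2.2 and 0.838 FPKM in control (1.18 ± 0.12, adjusted p = 0.00025).

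Of 5 tested osteochondrogenic genes 1 rose and 1 fell, against 9.45% and 6.58% of all genes. Spp1 (chr5:104582984-104588916), osteopontin, stood at 126, 47.4 and 105 FPKM without a named virus, 99, 68.4 and 114 with LV-Vector and 163, 65.8 and 111 with LV-Klotho, against 77.4, 16.4 and 59.3 FPKM in control (1.13 ± 0.20, adjusted p = 0.00478). It was higher than the control of the same number in all 9 libraries, but the groups overlapped and it was not called without the block (adjusted p = 0.136). Sox9, the cartilage factor, fell by 0.44 ± 0.10. Runx2, the bone factor, had 0.04 ± 0.15 and Msx2 0.22 ± 0.15, and neither passed. Alpl, the alkaline phosphatase that frees phosphate for mineral, was under the filter for low genes, at 0.108 to 1.58 FPKM, against 0.246 to 0.478. Bmp2 was too, at 0.016 to 0.287 FPKM in calcification medium, against 0, 0 and 0.131 FPKM in control.

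Of 9 tested genes linked to mineralization or phosphate handling 3 fell and none rose. Tnfrsf11b, osteoprotegerin, stood at 1.22 to 2.72 FPKM (median 2.5) in calcification medium, against 3.15, 3.71 and 4.69 FPKM in control (-0.63 ± 0.14, adjusted p = 0.0161), without overlap. The phosphate importer Slc20a2 fell by 0.29 ± 0.08 and the sphingomyelinase Smpd3 by 0.34 ± 0.10. None of the 3 was called without the block. Mgp, the matrix Gla protein that blocks mineral, had -0.02 ± 0.14 (adjusted p = 0.924), with 733 to 1605 FPKM (median 1059), against 1610.4, 1009 and 903 FPKM. Slc20a1, the other importer, had 0.17, and neither gene passed.

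Lipid synthesis genes were lower. Of 22 tested genes of cholesterol synthesis and uptake, 11 fell and none rose, with a median of -0.35, and of 9 fatty acid synthesis genes 4 fell, with a median of -0.24. Without the block 2 of each list fell, and with the LV-Vector group out of the average 6 and 1. The enzymes Hsd17b7 and Sc5d fell by 0.64 ± 0.11 and 0.53 ± 0.09, and Sqle and Cyp51 by 0.62 and 0.52. Srebf2, their transcription factor, fell by 0.32 ± 0.08, while Hmgcs1 did not pass at -0.44 ± 0.16. Acaca, which makes malonyl-CoA, stood at 3.68 to 6.59 FPKM (median 5.26) in calcification medium, against 7.95, 7.04 and 8.2 FPKM in control, without overlap (-0.49 ± 0.09). The desaturases Scd1 and Scd2 fell by 0.44 and 0.43, and Fasn had -0.02 and did not pass.

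Of 13 mitochondrially encoded genes 4 fell and none rose, with a median of -0.24; the median was -0.23 without a named virus, -0.62 with LV-Vector and 0.15 with LV-Klotho, each against the same controls. The complex I subunit mt-Nd5 stood at 339, 389.9 and 356 FPKM without a named virus, 251, 249 and 233 with LV-Vector and 473, 430.2 and 371 with LV-Klotho, against 492, 613 and 493 FPKM in control (-0.66 ± 0.10, adjusted p = 0.00248). The F test among the calcification groups gave it an unadjusted p = 0.000177 (adjusted p = 0.128). mt-Nd6 fell by 0.75 ± 0.11. It lies on the strand opposite to that of mt-Nd5, and without a stated strand setting reads from opposite strands cannot be told apart. mt-Atp8 was carried by control replicate 2, at 9.05 FPKM, against 0.86 and 1.14 in the other controls, and was not called without that library (adjusted p = 0.245). The remaining fall, mt-Nd3 (-0.53 ± 0.16), averaged only 1.923 FPKM in calcification medium and 3.23 FPKM in control. Levels in this list were uneven: in calcification medium mt-Co2, mt-Co3 and mt-Atp6 averaged 25.2, 21.85 and 13.86 FPKM, while mt-Co1 averaged 2843 FPKM. Of 27 nuclear oxidative phosphorylation genes 1, Sdhb, rose (0.55 ± 0.14), with a list median of 0.21, and of 20 citric acid cycle and fatty acid oxidation genes Etfb rose (0.49 ± 0.13).

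Of 18 p53 targets 5 rose and none fell (9.45% and 6.58% of all genes), among them Perp (0.57 ± 0.10), Gdf15 (0.70 ± 0.20), Sesn2 (0.47 ± 0.12) and Bbc3 (0.37 ± 0.10), and none was called without the block or without control replicate 2. Of 22 antioxidant, iron and metallothionein genes 4 rose and 2 fell; Sod3 was the 1 called without the block. Sod3, the extracellular superoxide dismutase, fell by 0.59 ± 0.09 without overlap, and the transferrin receptor Tfrc by 0.52 ± 0.11. Mt2, a metallothionein, stood at 21.8, 57.4 and 85.4 FPKM without a named virus, 123, 73.7 and 56.1 with LV-Vector and 32.7, 17.7 and 26.2 with LV-Klotho, against 21.9, 17.3 and 20.4 FPKM in control (1.17 ± 0.35, adjusted p = 0.0476). Gsta4 and Srxn1 rose by 0.83 ± 0.23 and 0.42 ± 0.11. Of 22 genes of the unfolded protein and integrated stress response 2 rose (Sesn2 and Phgdh) and 2 fell (Calr and Hyou1). Of 20 genes of a chaperone list 1 rose (Hspe1, 0.46 ± 0.13) and 2 fell (Hspa4, -0.35 ± 0.09, and Hsph1, -0.30 ± 0.09). The protease Ctsk, known from bone resorption, rose by 0.75 ± 0.12 and Hexa by 0.35 ± 0.10, 2 of 21 lysosome genes. The shares called in the unfolded protein, chaperone and lysosome lists were close to those of all genes, and none of these calls was made without the block. The calcium pumps Atp2a2 and Atp2b1 fell by 0.52 ± 0.15 and 0.36 ± 0.11, and the receptor Adra1d and the kinase Prkg1 of vessel tone by 0.57 ± 0.14 and 0.48 ± 0.12; none of these 4 was called without the block.

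The markers of the labelled cell type were present in all libraries. Smooth muscle markers summed to 157.2 to 1220 FPKM (median 710.8) in calcification medium, against 206.7 to 1115 FPKM in control, a sum made up mostly of Acta2. In the replicate 1 libraries of both media Myh11 stood at 1.32 to 2.58 FPKM and Tagln at 1.11 to 1.85 FPKM. Of 8 tested adventitial fibroblast markers 2 rose and 3 fell, against 9.45% and 6.58% of all genes. Ly6a (0.90 ± 0.13) and Ly6c1 (0.93 ± 0.19) rose, and Pdgfra, Dpt (-0.57 ± 0.15) and Serpinf1 (-0.36 ± 0.10) fell. Without the block 1 rise and no fall were called, and without control replicate 2 or 3, 2 rises and no fall. That list summed to 839.8 to 2103 FPKM in calcification medium, against 743.6 to 1032 FPKM in control, a sum made up mostly of Ly6a and Ly6c1. The other 10 markers summed to 170.8 to 265.6 FPKM, against 221 to 327.1 FPKM, and lay under the control of the same number in 8 of 9 calcification libraries. Endothelial markers summed to 2.5 to 11.42 FPKM, against 2.53 to 12.81 FPKM, with neither of the 2 tested passing, and lymphocyte markers to no more than 0.7186 FPKM in any library. Neither the 1 tested adipocyte marker nor any of the 3 tested Schwann cell markers passed. Tnnt2, cardiac troponin T, was the 1 tested striated muscle marker and rose by 0.81 ± 0.15, at 0.699 to 7.51 FPKM (median 3.23), against 1.15, 2.76 and 0.564 FPKM. The part of other cell types in the gene groups above was not tested.

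**Figure D5:**
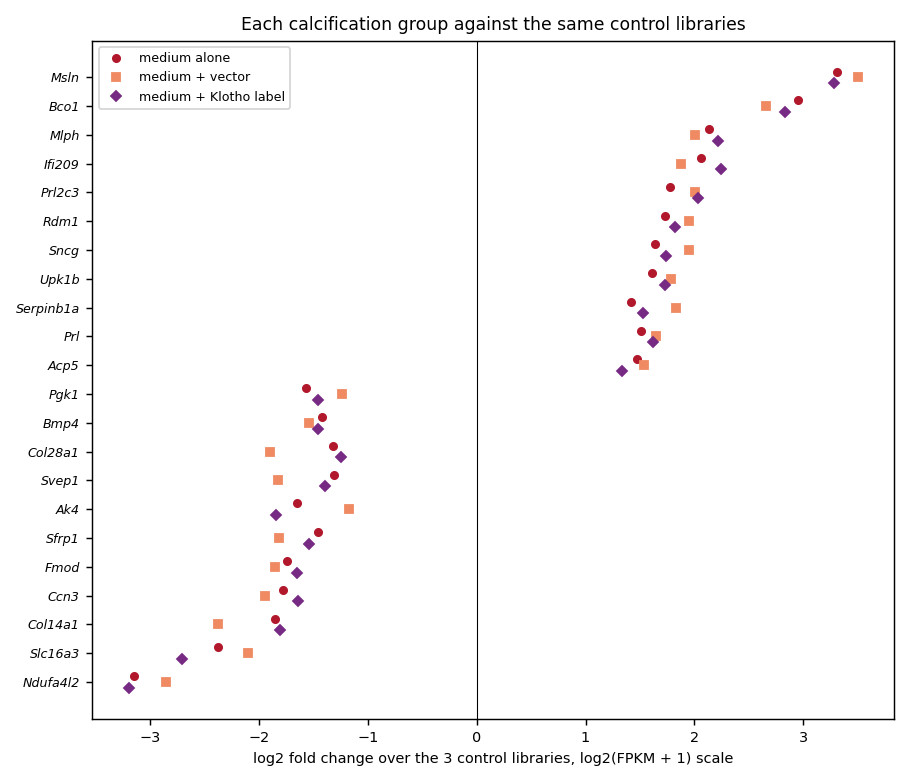
Log2 fold change of 3 calcification groups (medium alone means no virus named) over the same 3 control libraries for genes with the largest rises and falls. The genes were chosen for the same direction in all 3 groups, so the 3 symbols lie on the same side of 0 by that choice. They lie between 3.28 and 3.50 for Msln and between -3.19 and -2.85 for Ndufa4l2.

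The 3 calcification groups were also compared with each other, a contrast that uses no control mean. The moderated F test called 0 of 10758 genes (0.0%) at an adjusted p under 0.05, with 1932 (18.0%) at an unadjusted p under 0.05. Without the block 0 were called and 1271 (11.8%) were under 0.05 unadjusted, and limma-voom on recovered fragments called 4. The smallest p was that of Ier2, an immediate early gene, which stood at 14.4, 13.5 and 14.6 FPKM with LV-Klotho, 32.8, 33 and 25.5 with LV-Vector and 30.9, 21.5 and 29.2 without a named virus, against 17.3, 13.2 and 14.6 FPKM in control. Its LV-Klotho values were at the level of the controls (unadjusted p = 2.5e-05, adjusted p = 0.128). Wwp1, a ubiquitin ligase, stood at 23, 45.4 and 31.9 FPKM with LV-Klotho, 15.7, 23.5 and 16.3 with LV-Vector and 21.4, 37.2 and 25.7 without a named virus, against 17.9, 35.7 and 24.1 in control. Crebrf, Cped1, Gulp1 and Idi1 had the next smallest p, and in each the LV-Vector group was lowest on average. Set singly against the same controls, the LV-Vector group had 3211 called genes (29.8%), the LV-Klotho group 517 (4.81%) and the group without a named virus 421 (3.91%). These counts share their controls, and the difference between them was not tested. With the LV-Vector group out of the average 760 genes were called, 500 higher and 260 lower.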

How the data were processed

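RNA of 12 cultures was sequenced, 3 in each of 4 groups. The authors deposited 1 table of FPKM values for 25745 genes. Per the submitters' processing notes they used CASAVA 1.8.2, STAR 2.4 and DESeq2 3.12 with GRCm38 and GRCm39; which build the table's positions follow is not given in the sources used here. The FPKM values, a unit taken from the table itself, came out as whole multiples of 1 fragment for 98.09% to 98.38% of the values under 100 fragments (within 0.05 of a whole number; 10% by chance), so the depth could be recovered: 16636138 to 20009600 fragments per library.

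From the FPKM, log2(FPKM + 1) was tested with limma 3.58.1 (R 4.3.3) with a variance trend, over the genes that averaged 1 FPKM or more across the 12 libraries, with 1 coefficient per group and the replicate number as a block. The contrast was the mean of the 3 calcification groups minus control; an F test compared the 3 groups. Genes were called at a Benjamini-Hochberg adjusted p under 0.05 over all genes tested. The block was set together with the comparison, and the labels do not say what a replicate number shares. Same-numbered libraries deviated together: control and calcification pairs correlated at 0.199 to 0.571 over genes (9 pairs). Among the calcification groups the 9 same-numbered pairs ran from -0.063 to 0.731, with a median of 0.497. The pairs of LV-Vector replicate 3 were the lowest, at -0.063 and 0.006, so the block is not established for the F test.

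Genes were named as the 12 largest rises and falls without overlap and at least 5 FPKM, up to 4 called genes of each list by adjusted p, the genes of the study's question and the 6 smallest F-test p. Members named beyond that rule, among them Bnip3, Ldha and Cdkn2a and those that did not pass, were chosen after their values were seen. The comparison, the 52 lists and the tests were chosen with earlier results of these data known. One or more results named by that rule are not reported here. Other scalings, pseudocounts, filters, limma-voom on recovered fragments, GC and length trends, single libraries and single groups were tried. The scripts were tested on simulated data. Python 3.11.15 drew the figures with matplotlib 3.10.9.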

Additional observations from a re-analysis of the deposited data

Results flagged for a closer look

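In 5 of 160 genes examined, 1 of the 9 calcification libraries lay further from the others than Dixon's test allows at the 95% level; chance alone would do so in about 1 of 20 genes. Ndufa4l2 reached 9.56 FPKM in LV-Vector replicate 1, against a median of 3.19 FPKM over the 9, still under every control. Fmod reached 5.97 FPKM in LV-Klotho replicate 2, against a median of 3.05 FPKM. Pcolce and Serpinf1 were highest in LV-Vector replicate 2, at 283.8 and 201.7 FPKM, against medians of 190.9 and 148.0 FPKM. Wwtr1 was highest in replicate 2 without a named virus, at 33.39 FPKM, against a median of 22.56 FPKM.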

How the results depend on the processing

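The count of called genes was 1725, and it moved by more than 1.5 times to 471 without the replicate block, 1066 with 1 coefficient for all calcification libraries, 808 without a filter, 498 without the block after removal of GC and length trends (an alternative added after the data were seen), 2620 in replicates 2 and 3 only and 760 without the LV-Vector group. Leaving out 1 library gave 424 (control replicate 3) to 2345 (LV-Vector replicate 3), with 456 without control replicate 2, 1023 without LV-Klotho replicate 2, 1119 without LV-Klotho replicate 3 and 1146 without replicate 2 of the group without a named virus. Higher genes numbered 1017 and moved to 279 without the block, 475 without a filter, 298 without block and trends, 1660 in replicates 2 and 3 and 500 without LV-Vector, or 272 to 1331 with 1 library left out (283 without control replicate 2, 628 without LV-Klotho replicate 2). Lower genes numbered 708 and moved to 192 without the block, 363 with 1 coefficient, 333 without a filter, 200 without block and trends and 260 without LV-Vector, or 152 to 1014, with 173, 395, 434, 458 and 458 without control replicate 2, LV-Klotho replicate 2, LV-Klotho replicate 3, LV-Vector replicate 2 and replicate 2 with no named virus. Called genes with 1 direction in all 3 groups moved from 1722 to 470 without the block, 806 without a filter, 498 without block and trends, 2613 in replicates 2 and 3 and 755 without LV-Vector, or 424 to 2341. The F test called 0 genes, but 1 without a filter, 4 with limma-voom, 1 in replicates 2 and 3, and 0 to 1 with 1 library left out. Upper-quartile and median-ratio scaling gave 767 higher and 1002 lower, and 852 higher and 897 lower. The cause of these changes was not tested, beyond fewer samples or genes.

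Of 148 named genes that were called, 0 reversed in any alternative; 63 kept the call without the block, 84 and 82 without control replicate 2 or 3, 101 without LV-Vector, 133 with GC and length trends removed, 141 with upper-quartile scaling and 139 with limma-voom. Over 10733 genes the fold change correlated with GC content at 0.254 and with log2 length at -0.303. Signs of uncalled genes turned near 0. With 1 library left out in turn Hsp90aa1 ranged from -0.208 to 0.005445 (above 0 without control replicate 2), Runx2 from -0.02068 to 0.1527, Mgp from -0.09584 to 0.03435 and Wwp1 from -0.04294 to 0.05673. In replicates 2 and 3 only, Runx2 was at -0.02068, Mgp at 0.003257 and Wwp1 at -0.04294. Without the group with no named virus they were at -0.008461, 0.04516 and -0.03915. Wwp1 was also at -0.04996 with upper-quartile scaling, -0.01963 with median-ratio scaling and -0.1529 without LV-Klotho. Crebrf was at 0.105 with GC and length trends removed, with or without the block, and at 0.1494 without LV-Vector.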

Other observations

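Several imprinted and immediate early genes moved as single genes rather than as lists. Grb10, an imprinted growth inhibitor, fell by 0.34 ± 0.08 (adjusted p = 0.0173), while the maternally expressed Meg3 had -0.04 and did not pass. Nr4a1, an immediate early nuclear receptor, rose by 0.61 ± 0.10 (adjusted p = 0.00452), with 4.04 to 8.52 FPKM (median 7.12) in calcification medium, against 4.41, 4.31 and 3.29 FPKM in control. Fos and Jun had -0.04 and 0.05, and neither passed. Calr, a calcium-binding chaperone of the endoplasmic reticulum, fell by 0.31 ± 0.09 and Phgdh, the first enzyme of serine synthesis, rose by 0.60 ± 0.18. Fth1, the heavy chain of ferritin, rose by 0.48 ± 0.14 (adjusted p = 0.0408).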
